A study of Mus musculus with 20 samples.

Results

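The 9 genes described here make, carry, sense and clear retinoic acid, the vitamin A derivative that drives spermatogonia out of the stem cell state. They are Dhrs3 and Aldh1a2 (synthesis), Crabp1 and Crabp2 (carriers), Rara, Rarb and Rarg (receptors), and Cyp26a1 and Cyp26b1 (breakdown). They were chosen by name and matched by symbol, and all 9 were found among the 25965 genes of the chromatin table and the 25067 genes of the RNA table.

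Retinol is oxidised to retinaldehyde and then, by retinaldehyde dehydrogenases such as Aldh1a2, to retinoic acid. Carrier proteins hold it in the cytoplasm, the receptors bind DNA with a retinoid X receptor partner and act on transcription, and the Cyp26 enzymes remove it. In the testis, retinoic acid induces Stra8 and starts spermatogonial differentiation and meiosis, and Cyp26b1 is known for keeping it from fetal germ cells.

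Germline stem cells (GSCs) are the cultured counterpart of spermatogonial stem cells and grow on fibroblast feeders. Kmt2b is a methyltransferase that places H3K4me3, a mark of active and poised promoters, while H3K27me3 is placed by Polycomb and marks repressed ones. All cells carried floxed Kmt2b alleles (F/F) and the tamoxifen-inducible Rosa26-CreERT2. Control cells were mock-treated with ethanol, and knockout cells (FC/FC) received 4-hydroxytamoxifen at 1 μM, so that loss of Kmt2b and exposure to the drug cannot be told apart. Cells were collected 6 days later. Each genotype has 2 libraries of H3K4me3, of H3K27me3, of input DNA and of RNA, from duplicate cell lines per the series' design. H3K9me3, a mark of heterochromatin, comes from control cells alone, as 2 libraries and 2 separate inputs prepared with another kit (ThruPLEX, against NEBNext for the rest). The treatment and harvest day of those cells are not given. The age and strain of the animals behind the lines are not given in the labels.

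The chromatin values are reads scaled to the depth of the library (RPM) in 1 window per gene, whose size and place are not stated, and the RNA values are RPM per gene, not divided by transcript length. Depth ran from 10538531 to 14810135 mapped reads for H3K27me3, from 10967790 to 14405261 for its inputs, and from 38458010 to 45771857 for RNA. Among the H3K4me3 libraries, knockout replicate 1 stood apart with 3830045 mapped reads against 10360152 to 18035122 in the other 3. Kmt2b RNA, listed under its older symbol Wbp7, measured 142 and 150.05 RPM in the controls and 131 and 185 RPM in the knockouts (log2 change 0.09, adjusted p = 0.798, limma). A count over the whole gene does not test for the loss of floxed exons, so it checks neither the labels nor the deletion. Germ cell markers were abundant in all RNA libraries, with Ddx4 at 356 to 434 RPM and Dazl at 735 to 787 RPM. Knockout and control were compared with limma on log2 RPM in each assay. A call is an adjusted p under 0.05 (Benjamini-Hochberg) over all genes tested.

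No member overlapped another gene of the table. The closest start of another gene lay 12227 bases away, from Cyp26a1 to its neighbour Cyp26c1. RefSeq promoter entries (build GRCm38.p6) matched 8 of the 9 members. They were searched on both strands, over the 250 bases before the start, for a receptor binding repeat with the half-sites AGGTCA or GGGTCA or AGTTCA or GGTTCA, repeated in the same direction with 5 bases between. Only the promoters of Cyp26a1 and Rarb held it among the matched members, against 29 of 32851 promoters in all (0.0883%). Of the same repeat with 1 or 2 bases between, found in 54 (0.164%) and 57 (0.174%) of all promoters, no matched member held a copy. The repeat puts 2 members apart from the others in sequence, so both are shown, with the repeat in capitals and all other bases in lower case. The Cyp26a1 copy lies 32 to 16 bases before the start and reads on the other strand. The Rarb copy lies 53 to 37 bases before the start on the gene's own strand, and Rarb was added to the display after the repeat was seen. Crabp1 is shown beside them because its RNA was called lower in the knockout, and it holds no such repeat.
Cyp26a1, chr19:37697558-37697807, plus strand: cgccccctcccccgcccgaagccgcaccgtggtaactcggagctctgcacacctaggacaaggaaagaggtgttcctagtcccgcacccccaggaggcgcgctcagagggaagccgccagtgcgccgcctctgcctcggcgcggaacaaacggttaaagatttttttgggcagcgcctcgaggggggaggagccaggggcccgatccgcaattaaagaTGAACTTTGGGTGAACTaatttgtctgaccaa
Rarb, chr14:16575477-16575726, minus strand: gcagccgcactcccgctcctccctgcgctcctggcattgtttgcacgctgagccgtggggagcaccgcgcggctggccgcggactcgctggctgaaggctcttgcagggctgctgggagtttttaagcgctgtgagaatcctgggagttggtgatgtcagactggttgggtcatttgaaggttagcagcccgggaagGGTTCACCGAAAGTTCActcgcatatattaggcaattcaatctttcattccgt
Crabp1, chr9:54764498-54764747, plus strand: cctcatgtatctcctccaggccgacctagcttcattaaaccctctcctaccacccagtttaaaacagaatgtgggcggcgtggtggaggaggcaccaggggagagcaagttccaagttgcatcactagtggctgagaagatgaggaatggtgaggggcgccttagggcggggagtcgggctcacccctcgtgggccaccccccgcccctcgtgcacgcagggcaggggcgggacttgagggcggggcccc

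The Cyp26a1 promoter had a GC content of 61.6% and 20 CpG dinucleotides, that of Rarb 58.0% and 16, and that of Crabp1 63.6% and 12. A match is a string of letters and not a measured binding site. The windows of the chromatin table may or may not cover these bases.

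H3K4me3 was lower in the knockout at Cyp26a1, the enzyme that degrades retinoic acid and is itself a retinoic acid target. At 6 of the 8 members tested, both knockout libraries lay under both control libraries, beside 42.8% of all windows tested. Rara and Rarg stood apart from these 6, with overlapping groups and changes near 0. The ninth member, Cyp26b1, had almost no H3K4me3 in either genotype.

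At Cyp26a1 (chromosome 19, 37697808 to 37701528, plus strand), H3K4me3 measured 13.1 and 16.5 RPM in the controls and 4.96 and 7.36 RPM in the knockouts. Both knockout libraries lay well under both control libraries. The means were 14.8 ± 2.36 and 6.16 ± 1.70 RPM (SD, n = 2 each), a 2.43-fold lower level (log2 change -1.28, SE 0.43, adjusted p = 0.0367, limma). It was the only member called in H3K4me3, 1 of 8 tested, where 9.9% of all windows tested were called lower and 0.0512% higher. That balance over all windows, 1546 lower and 8 higher, depended on the scaling, with 1430 and 642 under median centring, 595 and 414 under quantile normalization and 4163 and 2622 in voom on the reads. The call held without the shallow knockout replicate 1 (-1.0). It was lost without control replicate 1 (-1.45) or 2 (-1.12), as was every lower call over all windows. That loss is thus not particular to Cyp26a1. The call was also lost on division by input (-1.55, adjusted p = 0.0755, limma). Quantile normalization (-0.59, adjusted p = 0.0841, limma) and no filter (adjusted p = 0.0595) lost it as well.

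Cyp26b1 (chromosome 6, 84571414 to 84593908, minus strand) had 0 H3K4me3 reads in both controls and 2 reads in each knockout library. The knockout reads came to 0.522 and 0.121 RPM. A count of 0 allows up to 3 reads at the depth of its own library, and the depths differ. No fold is given on counts this small. In control cells the H3K4me3 of the breakdown enzymes was thus 14.8 RPM at Cyp26a1 against no read at Cyp26b1.

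Of the carriers, which bind retinoic acid in the cytoplasm, Crabp2 is the one known to deliver it to the receptors. At Crabp2 (chromosome 3, 87948666 to 87953376, plus strand), H3K4me3 measured 8.69 and 14 RPM in the controls and 2.87 and 7.12 RPM in the knockouts. Both knockout libraries were lower, but the difference missed the threshold (log2 change -1.29, SE 0.48, adjusted p = 0.0606, limma). The lowest of these values rests on 11 reads in knockout replicate 1, without which the change was -0.63. At Crabp1 (chromosome 9, 54764748 to 54773110, plus strand), H3K4me3 measured 19.8 and 23.6 RPM in the controls and 13.6 and 15.7 RPM in the knockouts. The knockouts again lay lower without overlap, and the change was not called (-0.57, SE 0.31, adjusted p = 0.239, limma). Without knockout replicate 2, which leaves the shallow library alone, the changes were -1.94 at Crabp2 and -0.67 at Crabp1.

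Among the receptors, Rarb, a retinoic acid target as well as a sensor, separated from the other 2. At Rarb (chromosome 14, 16430842 to 16575472, minus strand), H3K4me3 measured 16.6 and 18.9 RPM in the controls and 8.09 and 9.71 RPM in the knockouts. The groups were far apart relative to the spread within them, 17.7 ± 1.59 against 8.90 ± 1.14 RPM (SD, n = 2 each). With all libraries, the change of -1.0 (SE 0.37, adjusted p = 0.0628, limma) was not called. Dropping a knockout library gave -0.87 (replicate 1 dropped) or -1.13 (replicate 2 dropped). Dropping a control library gave -1.09 (replicate 1) or -0.91 (replicate 2). Of the 8 settings that kept all libraries, 3 called Rarb. Division by input was not among those 3 (-0.57, adjusted p = 0.518, limma). At Rara (chromosome 11, 98927818 to 98974942, plus strand), H3K4me3 measured 12.2 and 13.3 RPM in the controls and 10.4 and 13.5 RPM in the knockouts. At Rarg (chromosome 15, 102234938 to 102257517, minus strand), it measured 16.1 and 20.4 RPM in the controls and 14.4 and 24.4 RPM in the knockouts. For both genes the knockout libraries lay on either side of the controls. The changes were -0.10 (95% interval -0.83 to 0.64) for Rara and 0.04 (-0.55 to 0.64) for Rarg. In voom on the reads, Rarg was instead called higher (0.40, adjusted p = 0.0175, limma). The RefSeq starts of Rara lie 9878 to 37054 bases inside the gene as the table has it, so its window may not cover them.

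In the synthesis group, Dhrs3 returns retinaldehyde to retinol and so limits synthesis, and Aldh1a2 makes the acid. At Dhrs3 (chromosome 4, 144892827 to 144928209, plus strand), H3K4me3 measured 17.9 and 19.7 RPM in the controls and 8.35 and 15.5 RPM in the knockouts. At Aldh1a2 (chromosome 9, 71215789 to 71296243, plus strand), it measured 20.1 and 24.3 RPM in the controls and 13.3 and 16.4 RPM in the knockouts. Neither group overlapped, and neither change was called. Dhrs3 had a log2 change of -0.72 (SE 0.34, adjusted p = 0.164, limma) and Aldh1a2 one of -0.58 (SE 0.31, adjusted p = 0.217). Without the shallow knockout replicate 1 the changes were -0.27 and -0.43. Without knockout replicate 2 they were -1.17 and -0.73.

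Over the 8 members tested, the median log2 change in H3K4me3 was -0.65, beside -0.26 over all 15624 windows tested. Knockout libraries lay above control libraries without overlap at 0 of the 8, beside 8.98% of all windows. Control levels of H3K4me3 per window were in the order Aldh1a2 (22.2 RPM), Crabp1 (21.7), Dhrs3 (18.8), Rarg (18.3), Rarb (17.7), Cyp26a1 (14.8), Rara (12.7), Crabp2 (11.4) and Cyp26b1 (0). The control libraries overlapped between neighbours in this order except from Crabp1 to Dhrs3, from Rarb to Cyp26a1 and from Crabp2 to Cyp26b1.

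**Figure D1:**
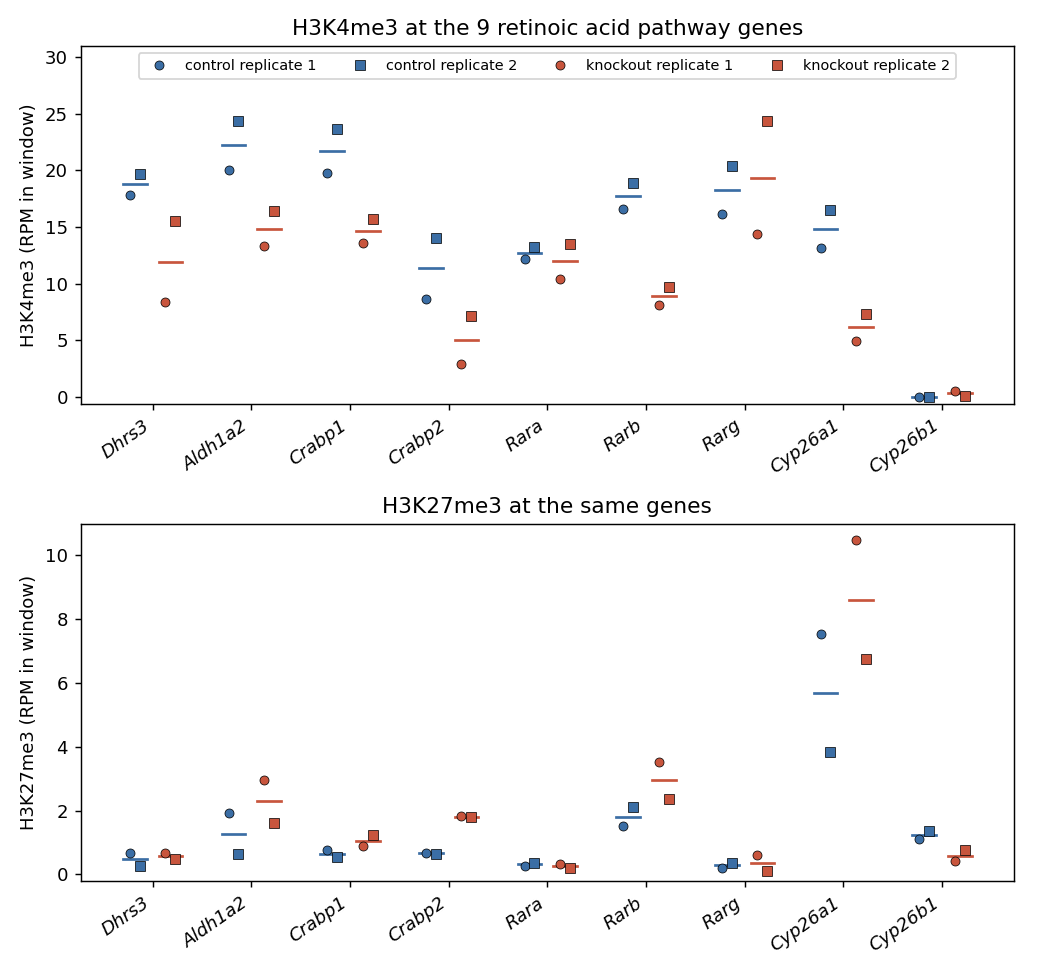
H3K4me3 (top) and H3K27me3 (bottom) in RPM per window (vertical axes, from 0) for each of the 9 genes; each point is 1 library, control in blue and knockout in red, and each bar is the mean of 2 libraries. For H3K4me3 the red points of Cyp26a1 (4.96 and 7.36 RPM) lie under the blue ones (13.1 and 16.5 RPM), while those of Rara and Rarg overlap.

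H3K27me3 was high at only 1 member, Cyp26a1, and no member was called. Cyp26a1 measured 7.53 and 3.85 RPM in the controls and 10.5 and 6.74 RPM in the knockouts. The groups overlapped, with the higher library of each genotype being replicate 1. The log2 change was 0.64 (SE 0.59, adjusted p = 0.733, limma, 95% interval -0.52 to 1.8), with 1.13 without control replicate 1 and 0.16 without control replicate 2.

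Crabp2 had 0.684 and 0.641 RPM of H3K27me3 in the controls and 1.82 and 1.8 RPM in the knockouts, which rest on 10, 7, 27 and 19 reads. The knockouts were higher without overlap, at levels of few reads. Its log2 change of 1.45 (SE 0.64) had an unadjusted p of 0.0229 and an adjusted p of 0.306 (limma), and so was not called.

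Rarb, the third member with a difference in that direction, measured 1.51 and 2.11 RPM in the controls and 3.51 and 2.37 RPM in the knockouts (0.70, SE 0.55, adjusted p = 0.676, limma). Aldh1a2 measured 1.92 and 0.641 RPM in the controls and 2.97 and 1.61 RPM in the knockouts, with overlap (0.98, SE 0.56, adjusted p = 0.474). The Aldh1a2 value rests on the controls, with 1.77 without control replicate 1 and 0.19 without control replicate 2. Those 4 genes were the members with a mean of at least 1 RPM, and 0 of 4 were called by limma, with 1 at an unadjusted p under 0.05. Over all 4807 windows tested, 0.791% were called higher and 0 lower, against 202 lower and 81 higher calls under median centring and 97 and 98 in voom. The members' median was 0.84 and that of all windows 0.45, and knockouts lay above controls without overlap at 2 of the 4, beside 36.9% of all windows. Crabp2 passed the filter only through its knockout libraries, with means of 0.663 RPM in control and 1.81 RPM in knockout cells. Cyp26b1, with means of 1.23 and 0.582 RPM, did not pass. The median and counts of the 4 thus depend in part on the filter.

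The other 5 members were below that mean and not tested. Cyp26b1 had 1.09 and 1.37 RPM of H3K27me3 in the controls and 0.405 and 0.759 RPM in the knockouts, on 16, 15, 6 and 8 reads. It was lower in both knockout libraries, opposite in direction to Crabp2 and Rarb, as were 3.14% of the windows tested. Crabp1 measured 0.753 and 0.549 RPM in the controls and 0.878 and 1.23 RPM in the knockouts. Rara, Rarg and Dhrs3 stayed under 0.7 RPM in every library.

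Input DNA, tested the same way over the windows kept for H3K4me3, gave 0 calls over all windows with limma (741 at an unadjusted p under 0.05). The members' input rested on 2 to 19 reads per library, and their log2 changes ran from -0.92 to 0.64.

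Each mark was then set over the input of the same number, as log2 of (RPM + 0.5) over (input RPM + 0.5), and a gene was counted as marked where both libraries of a genotype reached 1.5 for H3K4me3 or 1 for H3K27me3. In control cells Cyp26a1 had both marks, Cyp26b1 neither, and the other 7 members H3K4me3 alone. In knockout cells Crabp2 and Rarb joined Cyp26a1 with both marks, 5 members had H3K4me3 alone and Cyp26b1 again had neither. Both marks were present at 7.68% of all windows in control and 7.42% in knockout cells, and H3K4me3 alone at 49.9% and 44.2%.

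These classes come from thresholds and not from a test. Crabp2 lay at 0.61 and 0.21 for H3K27me3 over input in the controls and at 1.62 and 1.12 in the knockouts. Rarb lay at 0.60 and 1.51 in the controls and at 2.58 and 1.44 in the knockouts, so its first control library alone kept it out of the class with both marks. Its value of 2.58 rests on an input of 2 reads. Cyp26a1 lay at 3.21 and 1.37 in the controls and at 2.94 and 2.16 in the knockouts. All 3 stayed above 1.5 for H3K4me3 over input in the knockouts. Cyp26a1 was at 1.93 and 2.28 there, from 3.98 and 3.34 in the controls, and Crabp2 at 2.16 and 2.84, from 3.57 and 3.88. Rarb moved less on this scale, from 3.69 and 4.4 to 3.68 and 3.27.

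**Figure D2:**
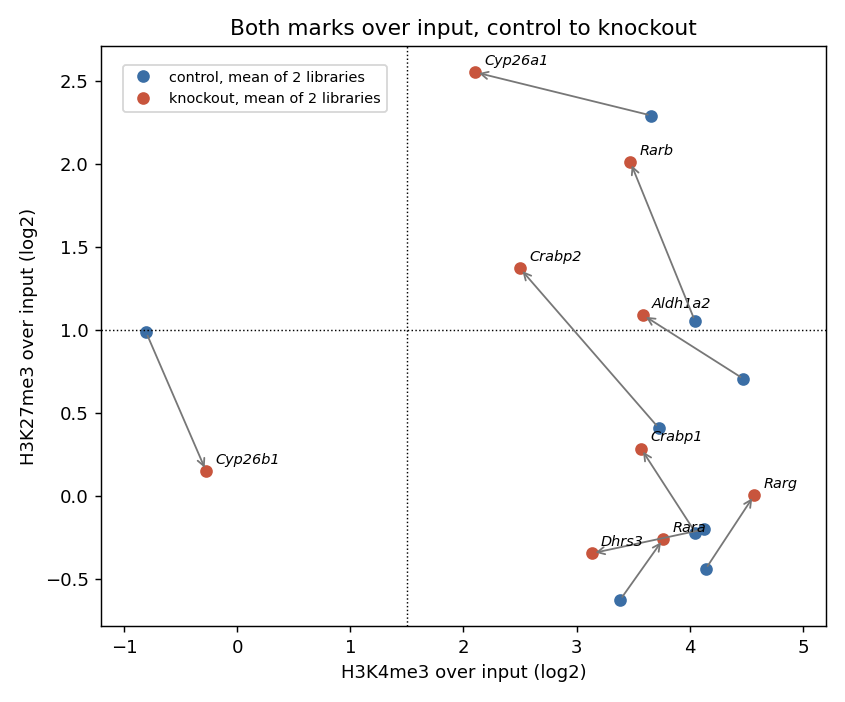
H3K4me3 over input (horizontal axis, log2) against H3K27me3 over input (vertical axis, log2), each point the mean of 2 libraries of 1 gene, with an arrow from control (blue) to knockout (red) and dotted lines at the thresholds of 1.5 and 1. The arrows of Cyp26a1, Rarb and Crabp2 end above the horizontal line and that of Cyp26b1 stays left of the vertical one; a class asks for both libraries and not for the mean, so Rarb in control cells and Aldh1a2 in knockout cells lie above the line without being counted.

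H3K9me3 was not enriched at any member in control cells. The windows held 0 to 8 reads per library, at most 0.158 RPM, beside 0.268 to 0.63 RPM in the inputs. The members' medians over input were -0.81 and -0.65 in the 2 libraries, and those of all windows -0.64 and -0.66. H3K9me3 in knockout cells was not analysed here.

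RNA of the carriers moved in opposite directions in the knockout, Crabp1 falling and Crabp2 rising. RNA of the receptors was not called in either direction with all libraries. In bulk RNA, fewer cells of a type and less RNA per cell cannot be told apart, and levels are not compared between genes because RPM is not divided by length.

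Crabp1 RNA measured 122 and 121 RPM in the controls and 83.0 and 78.5 RPM in the knockouts. The libraries of each genotype were close together and the genotypes well apart. The RNA fell by 0.59 on the log2 scale (SE 0.09, adjusted p = 0.0276, limma, 95% interval -0.81 to -0.38). Crabp2 RNA measured 2.47 and 2.03 RPM in the controls and 4.63 and 3.97 RPM in the knockouts, on 95, 90, 212 and 159 reads. The knockouts were higher without overlap, 4.30 ± 0.466 against 2.25 ± 0.312 RPM (SD, n = 2 each). The RNA rose 1.92-fold (log2 change 0.94, SE 0.18, adjusted p = 0.0459, limma).

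These were 2 of the 7 members tested, where 3.01% of all 14100 genes tested were called higher, 0.312% lower and 3.33% in either direction. These 44 lower and 425 higher calls became 114 and 266 under median centring, 20 and 50 under quantile normalization and 89 and 305 in voom. Both calls sit near the threshold. The Crabp1 call was lost without control replicate 1 (adjusted p = 0.304, limma), without control replicate 2 (0.252), under quantile normalization (0.0627) and with no filter (0.0761). The Crabp2 call was lost without control replicate 2 (0.80, adjusted p = 0.151, limma) and under quantile normalization (0.69, adjusted p = 0.143). It was also lost with median centring (0.84, adjusted p = 0.073), in voom on the reads (0.88, adjusted p = 0.0702) and with no filter (adjusted p = 0.121).

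Rara RNA measured 43.7 and 42.2 RPM in the controls and 47.2 and 49.2 RPM in the knockouts, a log2 change of 0.17 (95% interval -0.06 to 0.39, adjusted p = 0.383, limma). Rarg, the receptor known for its part in spermatogonial differentiation, measured 130 and 133 RPM in the controls and 121 and 146 RPM in the knockouts (0.02, interval -0.25 to 0.28). Rarb measured 10.04 and 10.1 RPM in the controls and 12.1 and 9.04 RPM in the knockouts (0.05, interval -0.31 to 0.42). Knockout values lay on either side of the controls for Rarg and Rarb and slightly above them for Rara. For all 3 receptors the interval of the difference stayed within 0.42 log2 units of 0. With 1 knockout library left out, the changes of Rara and Rarg stayed small, in opposite directions for Rarg. Without knockout replicate 1 they were 0.20 for Rara and 0.15 for Rarg. Without knockout replicate 2 they were 0.14 for Rara and -0.12 for Rarg.

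In the synthesis group, Aldh1a2 RNA measured 22.3 and 19.7 RPM in the controls and 17.4 and 18.6 RPM in the knockouts, lower without overlap and not called (-0.22, SE 0.11, adjusted p = 0.347, limma). The change was -0.27 without knockout replicate 2. Dhrs3, itself induced by retinoic acid in many tissues, measured 0.832 and 1.24 RPM in the controls and 1.84 and 1.95 RPM in the knockouts, on 32, 55, 84 and 78 reads. Both knockout libraries were higher, and the difference was not called (0.90, SE 0.26, adjusted p = 0.123, limma). The difference was 0.94 without knockout replicate 1, 0.85 without knockout replicate 2 and 0.61 without control replicate 1.

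The breakdown enzymes had too little RNA for the test. Cyp26a1 had 9 and 14 reads in the controls and 39 and 28 in the knockouts, or 0.234, 0.316, 0.852 and 0.699 RPM. The knockouts were higher without overlap. Fitted with no filter on low genes, the log2 change was 1.51 (95% interval 0.63 to 2.38, adjusted p = 0.134, limma). Cyp26b1 had 24 and 34 reads in the controls and 44 and 41 in the knockouts, or 0.624, 0.766, 0.961 and 1.02 RPM (0.52, interval -0.20 to 1.24, adjusted p = 0.448).

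The median log2 change in RNA was 0.05 over the 7 members tested and 0.06 over all genes tested. Of those 7, 3 lay higher in the knockout without overlap and 2 lower, where the shares over all genes were 36.2% and 16.0%. RNA and H3K4me3 differed in direction at Crabp2, Dhrs3 and Cyp26a1, which had less H3K4me3 and more RNA in both knockout libraries. At Crabp1 and Aldh1a2 both measures were lower. At Rarb, H3K4me3 was lower and RNA overlapped. Of these only the H3K4me3 of Cyp26a1 and the RNA of Crabp1 and Crabp2 were called.

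**Figure D3:**
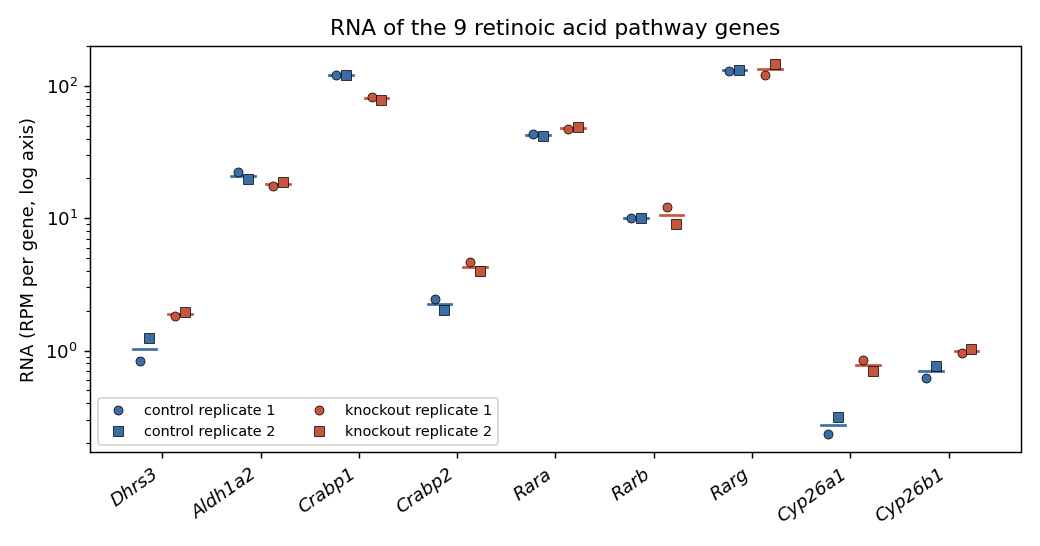
RNA in RPM per gene (vertical axis, log scale) of the 9 genes, each point 1 library, control in blue and knockout in red, with bars at the means of 2 libraries. Crabp1 drops from 122 and 121 to 83.0 and 78.5 RPM, Crabp2 climbs from 2.47 and 2.03 to 4.63 and 3.97 RPM, and the points of Rarb and Rarg overlap.

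**Figure D4:**
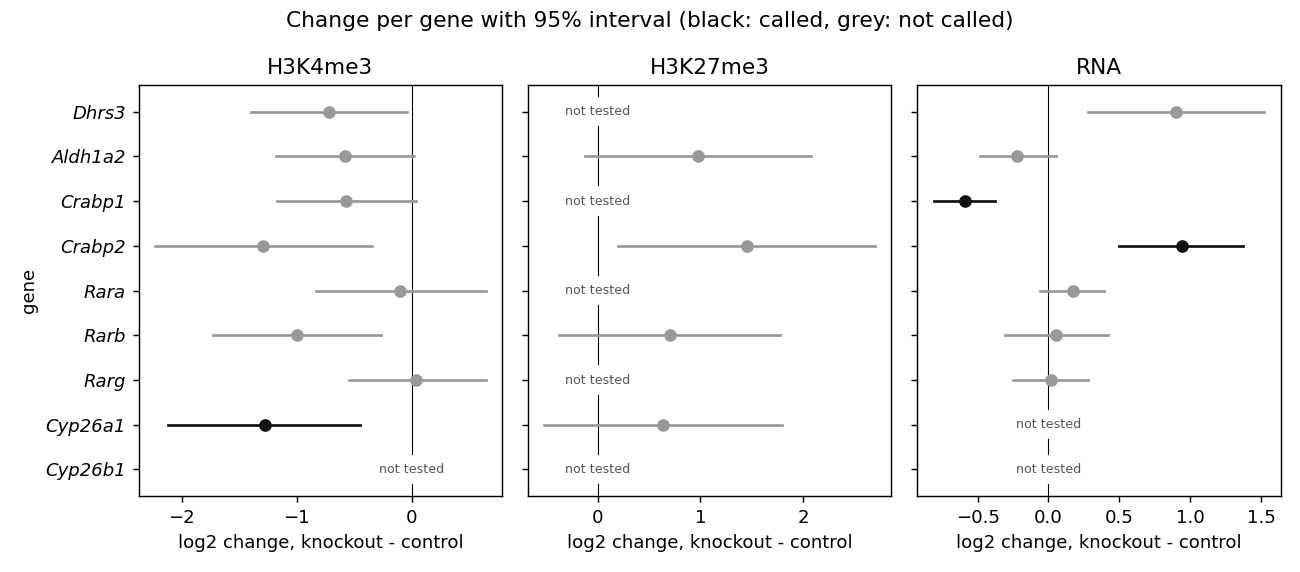
Log2 change from control to knockout (horizontal axes) with its 95% interval from limma, for H3K4me3, H3K27me3 and RNA of each gene, black where called and grey where not. Black appears for H3K4me3 of Cyp26a1 (-1.28) and RNA of Crabp1 (-0.59) and Crabp2 (0.94); genes below the filter are written as not tested.

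Another 37 genes of the pathway were followed by role. In H3K4me3, 6 of the 32 tested were called lower and 0 higher, with a median log2 change of -0.52. Over all windows, 9.9% were called lower and the median was -0.26. Lrat, which stores retinol as esters, measured 13.8 and 15.5 RPM in the controls and 1.83 and 7.96 RPM in the knockouts (-1.94, adjusted p = 0.00558, limma). Its RNA was 0 or 1 read in every library. Cdx1, a homeobox target of retinoic acid, had a change of -1.81 (adjusted p = 0.0196, limma). Fabp5, a fatty acid carrier that also takes retinoic acid, had one of -1.26 (adjusted p = 0.0202). The others were the dehydrogenase Aldh1a3 (-1.43, adjusted p = 0.0315), the coactivator Ncoa1 (-1.09, adjusted p = 0.0339) and Kit (-0.91, adjusted p = 0.0483). All 6 calls were lost without either control replicate, as was every lower call over all windows. Without the shallow knockout replicate 1, Lrat (-0.88), Aldh1a3 (-0.72), Ncoa1 (-0.63) and Kit (-0.43) were lost and Cdx1 and Fabp5 were not. The receptor partners Rxra, Rxrb, Rxrg and Ppard had 0 of 4 called. In H3K27me3, 0 of 16 were called by limma, with 4 higher at an unadjusted p under 0.05 and a median of 0.74, where 0.791% of all windows were called higher and the median was 0.45.

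In RNA, 3 of the 29 other pathway genes tested were called lower and 1 higher, with a median log2 change of 0.04. Over all genes, 0.312% were called lower and 3.01% higher, and the median was 0.06. Stra8, the gene through which retinoic acid starts meiosis, measured 141 and 122 RPM in the controls and 75.9 and 78.9 RPM in the knockouts. Its RNA fell by 0.76 on the log2 scale (SE 0.11, adjusted p = 0.023, limma). The call was lost without control replicate 1 (-0.66, adjusted p = 0.185) and with no filter (0.0761). H3K4me3 at Stra8 was low, 0.869 to 2.35 RPM, and not called (0.81, adjusted p = 0.604).

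Fabp5 was the only one of the 37 called in both H3K4me3 and RNA. Its RNA measured 4.73 and 3.92 RPM in the controls and 2.34 and 2.12 RPM in the knockouts (-0.95, SE 0.18, adjusted p = 0.0413, limma). Rbp4, the retinol carrier of the blood, measured 7.28 and 6.47 RPM in the controls and 4.22 and 3.92 RPM in the knockouts (-0.75, SE 0.14, adjusted p = 0.043, limma). Meis2, a homeobox gene that responds to retinoic acid, was the one called higher. It measured 0.676 and 0.834 RPM in the controls and 2.23 and 1.82 RPM in the knockouts (1.42, SE 0.25, adjusted p = 0.0352, limma). Both control values lay under the filter, so Meis2 was tested only because its knockout libraries were higher. Without control replicate 1, limma no longer called Fabp5 (-0.82, adjusted p = 0.242), Rbp4 (-0.67, adjusted p = 0.286) or Meis2 (1.27, adjusted p = 0.0503), and Rbp4 was also lost without control replicate 2 (-0.84, adjusted p = 0.067).

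Other response genes known from differentiating and meiotic germ cells had lower values without a call. Kit, the stem cell factor receptor, measured 56.0 and 49.2 RPM in the controls and 32.7 and 42.5 RPM in the knockouts (-0.50, adjusted p = 0.122, limma). The meiotic cohesin Rec8 had a change of -0.50 (adjusted p = 0.068) and Meiosin, listed under its older symbol, one of -0.66 (adjusted p = 0.0689). None of the 5 synthesis genes tested was called, Rdh10, which makes retinaldehyde, among them (0.38, adjusted p = 0.218, limma). All 5 lay higher in the knockout without overlap, beside 36.2% of all genes tested, with a median log2 change of 0.38. Of these, Aldh1a3 passed the filter only through its knockout libraries. It measured 0.884 and 0.654 RPM in the controls and 1.64 and 1.07 RPM in the knockouts. None of the 8 coregulators was called, with changes of -0.16 to 0.18.

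Of the receptor partners, Rxra (0.02, adjusted p = 0.95, limma) and Rxrb (-0.05, adjusted p = 0.801) had RNA changes near 0. Rxrg was below the filter, with 14 and 16 reads in the controls and 77 and 71 in the knockouts (0.364, 0.361, 1.68 and 1.77 RPM). Both knockout libraries of Rxrg lay far above both control libraries. Fitted with no filter, its log2 change was 2.25 (SE 0.28, adjusted p = 0.0745, limma). Cyp26c1 had 1 to 3 reads in every library.

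**Figure D5:**
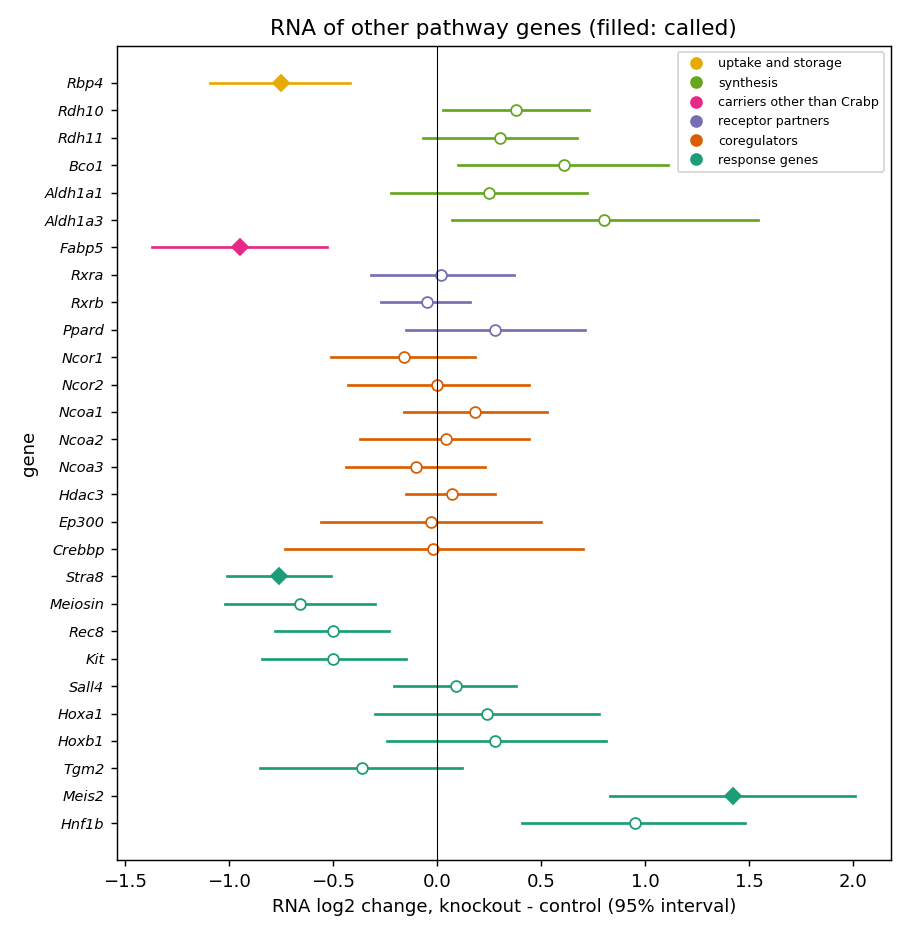
RNA log2 change from control to knockout with its 95% interval (horizontal axis) for other pathway genes tested, coloured by role and filled where called. The filled points are Rbp4 (-0.75), Fabp5 (-0.95), Stra8 (-0.76) and Meis2 (1.42), while the 8 coregulators lie between -0.16 and 0.18.

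Markers of other cells were followed in the same RNA. The 17 fibroblast feeder markers summed to 439 and 469 RPM in the controls and 481 and 622 RPM in the knockouts, with 2 of 16 tested called higher by limma, Col1a1 (0.71) and Pdgfra (0.73). The 15 germ cell markers summed to 2471 and 2417 RPM in the controls and 2381 and 2701 RPM in the knockouts, with Gfra1 (0.62) and Nanos2 (0.93), both of undifferentiated spermatogonia, called higher. The 5 markers of differentiating spermatogonia summed to 635 and 594 RPM in the controls and 501 and 542 RPM in the knockouts, Stra8 being the one called. Sertoli and Leydig markers summed to 19.3 to 24.7 RPM, with Cyp17a1 and Hsd3b1 at 0 in all libraries, and blood and macrophage markers to 3.90 to 5.59 RPM. The part of feeder cells and of spermatogonial states in the RNA results was not tested.

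Over the 12 log2 values of both marks and RNA, the genes nearest to Cyp26a1 by Euclidean distance among 25067 genes were Tlx3 (0.91), Kctd8 (1.05) and Vstm2b (1.06). Those nearest to Crabp1 were Cadm1 (1.27), Igfbp2 (1.30) and Fbxo41 (1.33). Those nearest to Crabp2 were Lama2 (1.52), Lrrc24 (1.55) and Tmem179 (1.55).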

How the data were processed

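H3K4me3, H3K27me3, H3K9me3, input DNA and RNA were measured in 20 libraries. The deposited values are log2 RPM, calculated by the authors per window or gene. They were not divided by input or length. TopHat2 2.0.14, Bowtie 1.1.1, Trim Galore 0.4.0 and CASAVA 1.8 are named, with the build mm10, per the submitters' processing notes, which give no roles, and the strand setting of the counts is not given in the sources used here. Within 0.1 reads, all values came out as whole reads, which gave the depths. Floors and read counts cover counting error only.

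Each assay was fitted separately with limma 3.58.1 in R 4.3.3 (mean-variance trend, two-sided, no replicate block) on 2 control and 2 knockout libraries. Chromatin windows needed a mean of 1 RPM, genes a mean log2 RPM of 0. These means cover both genotypes, so a window or gene could pass through the genotype where it was high. The fit was tested on simulated data. Alternatives were no filter, median centring, quantile normalization, 0.5 RPM added to every value before the log, and limma voom with a TMM scaling written for this work. Division by input, a replicate block and each library left out were also run. The p-values rest on 2 libraries a group. In limma, the spread of each window or gene is drawn toward a trend over all those tested. An SE or p-value here thus does not measure a gene's own replicate spread alone.

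The members and lists were chosen with earlier results of these data known. All members are named. Other pathway genes are given with values where called or from a fixed list, and Rec8 and Meiosin are given without a call and outside that list. 1 other pathway gene is counted but not reported by name. Promoter sequences are from RefSeq (GRCm38.p6).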

Additional observations from a re-analysis of the deposited data

How the results depend on the processing

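The members' calls rest on 2 libraries a group and on the control replicates. In H3K4me3, limma called 1 member. It called 0 with no filter, under quantile normalization and over input, 2 with median centring, 6 in voom (5 lower, and Rarg higher) and 6 with the replicate number as a block, all lower. Leaving out 1 library gave 0 to 6. In H3K27me3, 0 members were called, and 2 with the block. In RNA, 2 members were called, 0 with no filter or under quantile normalization, 1 with median centring, 1 in voom, 3 with the block, which added Dhrs3 (0.90, adjusted p = 0.0184, limma), and 0 to 6 with 1 library left out.

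Of the other pathway genes, 6 were called in H3K4me3, and 3 with no filter, 18 in voom, 11 with the block, 1 over input and 0 to 19 with 1 library left out. In H3K27me3, 0 were called, and 1 with no filter, with median centring or in voom, 8 with the block and 0 to 1 with 1 library left out. In RNA, 4 were called, and 0 with no filter, 7 with median centring, 1 under quantile normalization, 8 with the block and 0 to 20 with 1 library left out.

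Over all windows, H3K4me3 gave 1554 calls, and 1009 under quantile normalization (595 lower and 414 higher), 6785 in voom (4163 lower and 2622 higher), 4107 with the block, 386 over input and 2 to 7017 with 1 library left out. H3K27me3 gave 38 calls, and 283 with median centring (202 lower and 81 higher), 3 under quantile normalization, 195 in voom (97 lower and 98 higher), 1213 with the block, 4 over input and 0 to 152 with 1 library left out. With median centring, H3K4me3 gave 1430 lower and 642 higher calls. Input gave 0 calls, and 2 under quantile normalization. RNA gave 469 calls, and 0 with no filter (3561 at an unadjusted p under 0.05), 70 under quantile normalization, 1487 with the block and 255 to 6699 with 1 library left out. The cause of these shifts was not tested.

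The direction of the small changes at Rara, Rarg and Rarb was not stable. H3K4me3 at Rara turned to 0.19 with median centring, 0.48 under quantile normalization, 0.15 in voom, 0.38 over input and 0.09 without knockout replicate 1, in a range of -0.28 to 0.09 with 1 library left out. H3K4me3 at Rarg turned to -0.13 without control replicate 1 and -0.34 without knockout replicate 2, in a range up to 0.43. RNA of Rarb turned to -0.04 with median centring, -0.10 under quantile normalization, -0.01 in voom and -0.15 without knockout replicate 1, in a range up to 0.26. RNA of Rarg turned to -0.08 with median centring, -0.05 in voom and -0.12 without knockout replicate 2. In voom, H3K4me3 at Rarg was called higher (0.40, adjusted p = 0.0175, limma). No other member tested in these assays changed direction under the alternatives run. The labels do not say what a replicate number stands for, so the numbers were not taken to pair the samples. Libraries of the same number deviated together with correlations of 0.149 in H3K4me3, 0.062 in H3K27me3 and 0.091 in RNA, over 2 pairs. Such a correlation leaves out a shift common to all genes of a library, so it cannot exclude a pairing.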
